A study of Rattus norvegicus with 56 samples.

Results

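The let-7 family was followed through the first year after traumatic brain injury (TBI) in the rat hippocampus. Its members were chosen by name, as the let-7 rows of the 5p arm together with the 5p arm of miR-98, which gave 9 of the 367 mature miRNAs counted: let-7a, let-7b, let-7c, let-7d, let-7e, let-7f, let-7g, let-7i and miR-98. The rule uses names alone. Small RNA had been sequenced from the hippocampus of 28 rats after TBI, given by fluid percussion, and of 28 rats after sham surgery. There were 4 TBI and 4 sham libraries at each of 7 intervals, the earliest at 24 h and 2 w, then monthly at 1 m, 2 m and 3 m, and the latest at 6 m and at 12 m (labelled 1 year). The labels give treatment and time but no age, strain, sex, hemisphere or sequencing run. Sham rats received surgery too, so they are not untreated animals, and whole hippocampus mixes neurons, glia, vessels and blood.

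A miRNA guides the silencing machinery to messenger RNAs that pair with its seed, a short stretch near its 5′ end. All let-7 miRNAs have 1 seed and can therefore share targets, among which the growth genes of the RAS family, Hmga2 and Lin28 are the best known. The family is low in stem cells, where LIN28 proteins block the maturation of its precursors, and becomes abundant in differentiated cells such as neurons.

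The mature sequences are shown because the members differ by so few bases that reads of one could be counted as another. Capitals mark the seed, bases 2 to 8 from the 5′ end, and RefSeq held all 9 sequences.
rno-let-7a-5p: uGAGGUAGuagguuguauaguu
rno-let-7b-5p: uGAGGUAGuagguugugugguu
rno-let-7c-5p: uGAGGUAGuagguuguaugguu
rno-let-7d-5p: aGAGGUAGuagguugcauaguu
rno-let-7e-5p: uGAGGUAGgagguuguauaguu
rno-let-7f-5p: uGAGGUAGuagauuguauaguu
rno-let-7g-5p: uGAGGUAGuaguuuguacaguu
rno-let-7i-5p: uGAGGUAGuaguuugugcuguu
rno-miR-98-5p: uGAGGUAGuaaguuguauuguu

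Each sequence was 22 bases long, each carried the seed GAGGUAG, and no other mature rat miRNA in the RefSeq table had that seed. Relative to let-7a, with positions counted from 1 at the 5′ end, let-7c carried A19G, let-7e U9G and let-7f G12A. let-7b carried A17G and A19G, let-7d U1A and U16C, let-7g G12U and U18C, and miR-98 G11A and A19U. let-7i was the most distant from let-7a, with G12U, A17G, U18C and A19U. Of the 36 pairs of members, 4 differed at a single base, namely let-7a with let-7c, let-7e and let-7f, and let-7b with let-7c. How reads that fit more than 1 member were divided is not given in the sources used here, so the split between such pairs is uncertain.

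The 9 mature forms come from 12 genes in the GRCr8 annotation. let-7a, let-7f and let-7d lie side by side on the plus strand of chromosome 17 at chr17:16320145-16320166, chr17:16320508-16320529 and chr17:16322273-16322294, within the long non-coding RNA LOC120097935. A second let-7f gene (chrX:24460052-24460073) and the miR-98 gene (chrX:24460663-24460684) share the span of Huwe1, a ubiquitin ligase gene, on the plus strand. let-7b (chr7:118684044-118684065) and a let-7c gene (chr7:118683636-118683657) are neighbours on the plus strand with no spanning gene annotated. The other let-7c gene (chr11:29688127-29688148) lies near Mir99a within LOC103693508, and the other let-7a gene (chr8:50805219-50805240) near Mir100 within the spans of Lnc215 and Mir100hgl, both on the plus strand. let-7e (chr1:67350243-67350264, plus strand) sits beside Mir99b and Mir125a within the span of Spaca6. let-7g (chr8:115701026-115701047, plus strand, within the spans of Rpl29 and Wdr82) and let-7i (chr7:60527935-60527956, minus strand, within LOC134479799) have no other let-7 cluster gene within 10000 bases. Because let-7a, let-7c and let-7f each come from 2 genes with the same mature product, their counts cannot be assigned to a locus.

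Total counts ranged from 2083604 to 12468979 in 55 libraries (median of all 56, 5332934.5), and the library of TBI rat X747 at 2 m held 69628. Every member had at least 3188 counts in each of the 55 deeper libraries and at least 61 in that of X747, so the members were measured far above the counting floor. Levels are given as CPM, the count of a miRNA scaled to a library of fixed size, with library sizes adjusted by TMM, a scaling that assumes most miRNAs do not differ. The neuron-enriched miR-9a-5p was abundant in every library, with a lowest value of 116685.1 CPM.

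The family made up 15.2% to 20.6% of all counts in a library (median 17.0%; 16.8% in sham and 17.2% in TBI rats). rno-let-7g-5p was the most abundant member with 40419.5 ± 4181.8 CPM (SD, n = 56), followed by rno-let-7f-5p with 38169.8 ± 5432.2 and rno-let-7i-5p with 35467.6 ± 6503.0 CPM. rno-let-7c-5p stood at 24856.8 ± 3052.4 CPM. The next group held rno-let-7a-5p with 12406.8 ± 1464.4 CPM, rno-let-7d-5p with 8874.5 ± 1890.3 and rno-let-7b-5p with 7305.0 ± 989.6. rno-let-7e-5p reached 3305.4 ± 267.7 CPM, and rno-miR-98-5p, the least abundant, 1272.9 ± 348.1 CPM. Since all mature forms have the same length, CPM can be compared between them per length, although adapter ligation also differs between miRNAs and was not measured here.

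**Figure D1:**
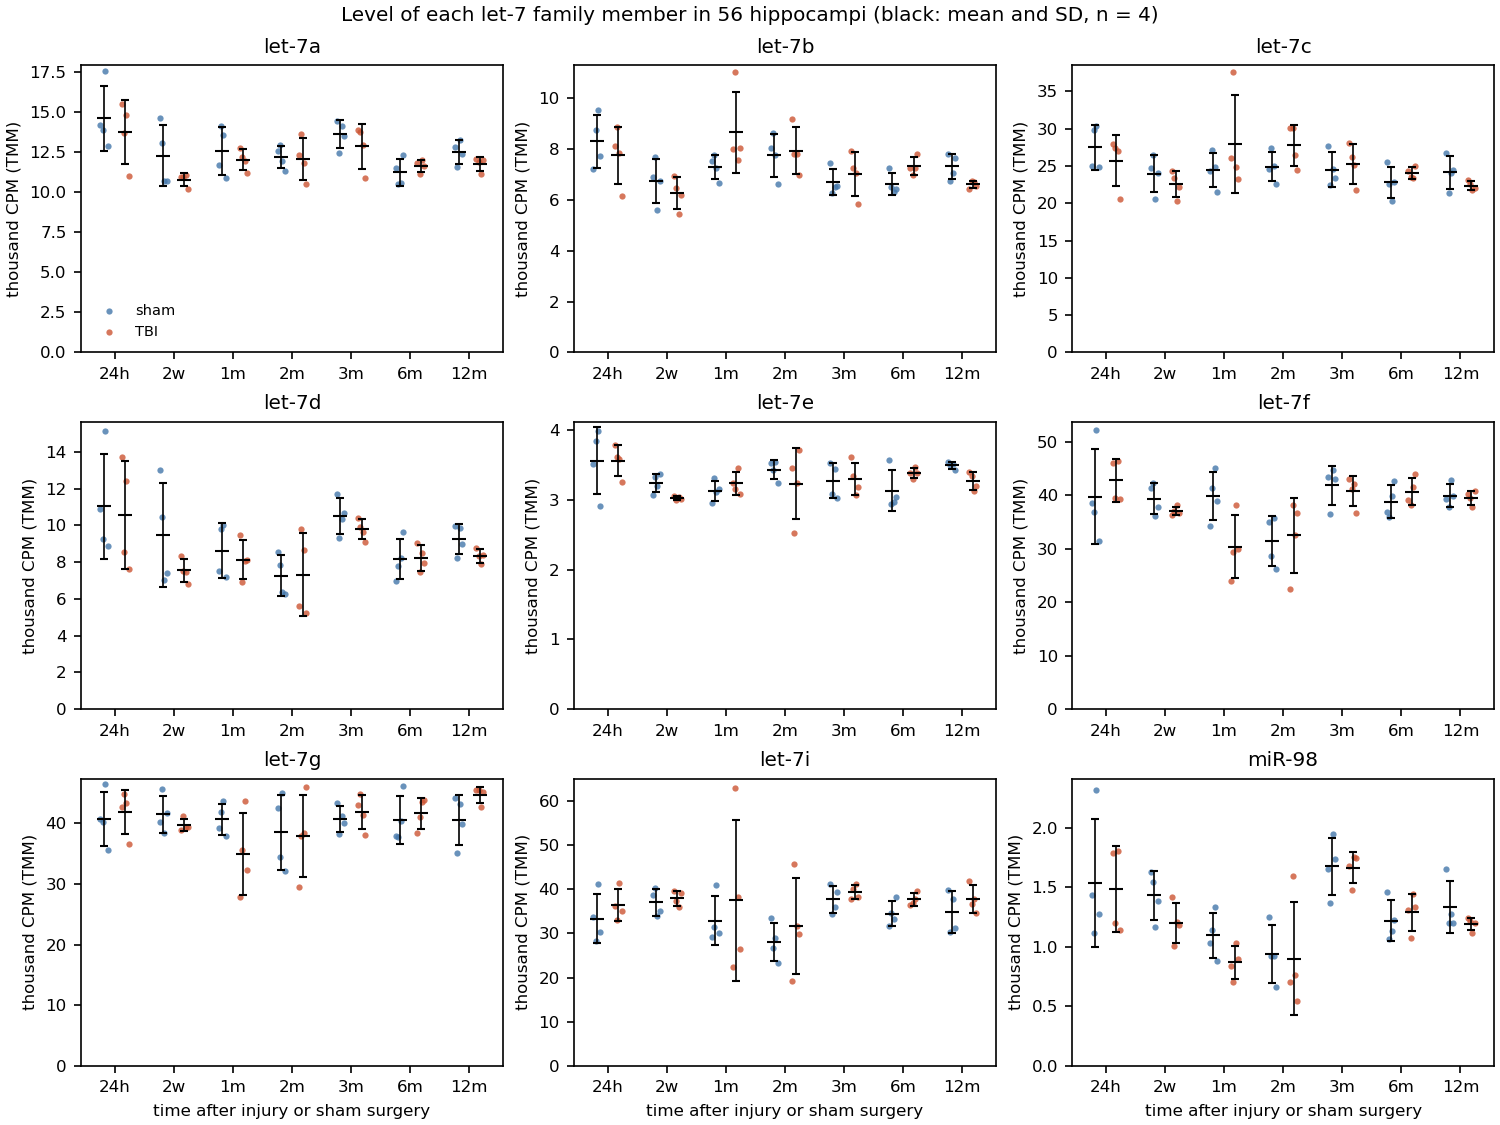
Level of each member, in kilo-CPM after TMM scaling, in every library against the time after injury or sham surgery (blue, sham; red, TBI; black, mean and SD, n = 4; the TBI group at 2m includes the shallow library of rat X747). let-7i reached 62846.3 CPM in 1 TBI library at 1m, and the miR-98 means were lowest at 1m and 2m in both groups.

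Not every step of this order held in every rat. let-7c exceeded let-7a, let-7a exceeded let-7d, let-7b exceeded let-7e, and let-7e exceeded miR-98 in 56 of 56 libraries. let-7i exceeded let-7c in 52, let-7f exceeded let-7i in 47, let-7d exceeded let-7b in 47 and let-7g exceeded let-7f in 41 of 56. The median ratio of let-7g to let-7f was 1.07, and that of let-7f to let-7i 1.08. The order of these 3 leading members was thus uneven over rats, with small typical differences. let-7g was the highest member in 37 libraries, let-7f in 14, let-7i in 4 and let-7c in 1, the shallow library of X747.

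The members also differed in how much they varied. let-7e had a coefficient of variation of 8.16% over the 55 deeper libraries, the lowest of the 244 miRNAs compared. That of let-7g was 9.71%, let-7a 11.9%, let-7c 12.1%, let-7f 13.1% and let-7b 13.3%, against a median of 22.7% over all 244. let-7i stood at 17.3% and let-7d at 20.7%. miR-98 alone among the members exceeded that median, with 26.7%. Counts limit the precision of low miRNAs more than that of the abundant let-7 members, so these values are not corrected for level.

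The first comparison asked whether any member changed after TBI at each interval. No member did: 0 of 9 passed an adjusted p of 0.05 at any of the 7 intervals when edgeR's quasi-likelihood p-values were adjusted over all miRNAs tested by Benjamini-Hochberg. The share of all tested miRNAs called was 1.72% at 24 h, 0.417% at 1 m and 0% at 2 w, 2 m, 3 m, 6 m and 12 m. At an unadjusted p under 0.05, 0 members were found at 6 intervals and 3 at 12 m. Of all miRNAs tested, 22 of 225 were under it at 12 m, 42 of 240 at 1 m and 21 of 227 at 2 w. It was 12 of 233 at 24 h, 17 of 236 at 2 m, 12 of 220 at 3 m and 11 of 224 at 6 m. The likelihood ratio test of edgeR and DESeq2 called 0 members at each interval as well. Fold changes at single intervals lay between -0.34 and 0.31 on the log2 scale. Their 95% intervals reached from -0.74 to 0.87, so a shift of 1 log2 unit was outside the interval of every member at every interval.

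**Figure D2:**
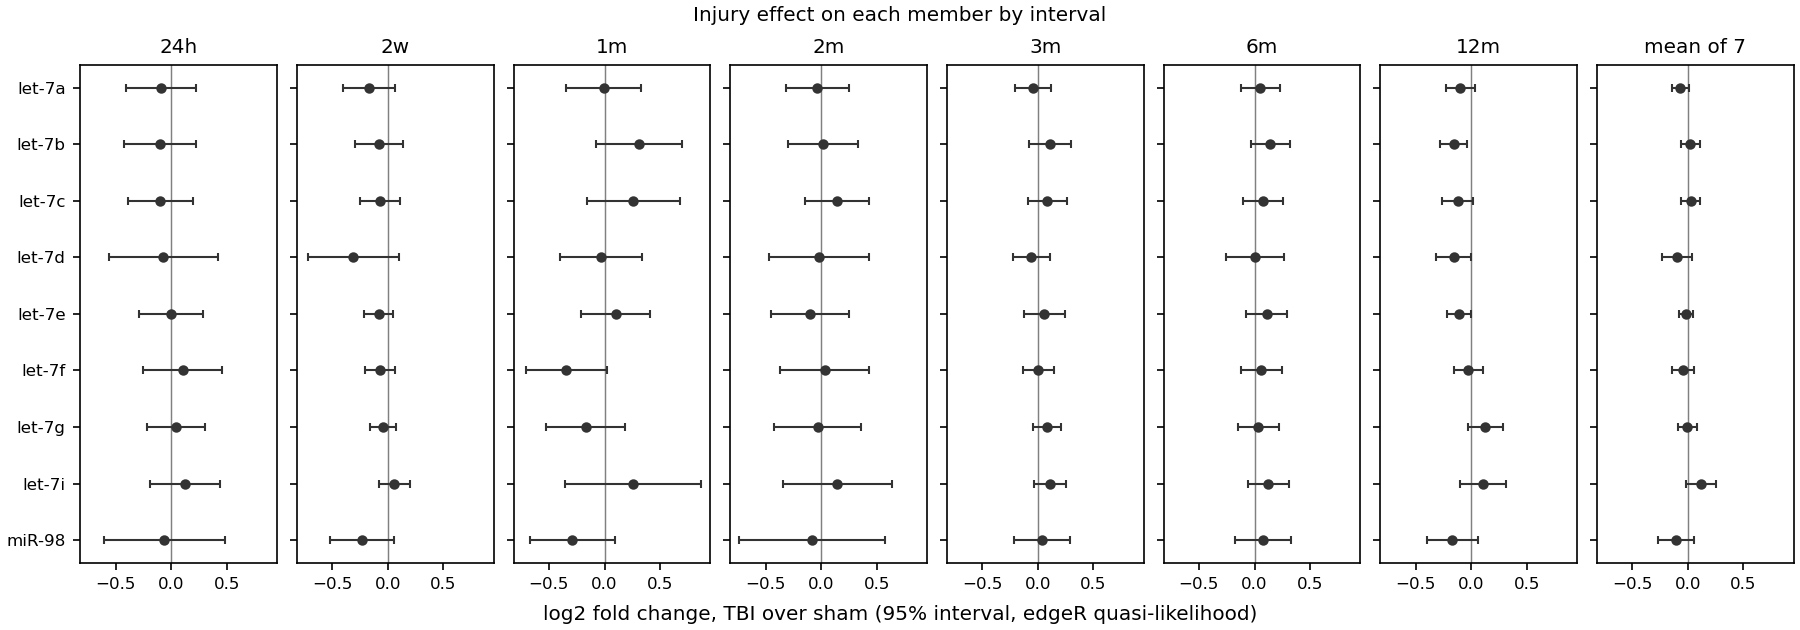
Log2 fold change of TBI over sham for each member at each interval and as the mean of the 7 intervals, with 95% intervals from edgeR's quasi-likelihood fit (4 libraries per group and interval). The intervals are widest at 24h, 1m and 2m, and at 12m those of let-7b, let-7d and let-7e lie below 0 before adjustment.

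At 12 m, 7 members had a lower and 2 a higher fitted level after TBI. let-7b had 7805.4, 6750.2, 7060.7 and 7656.0 CPM in the sham rats and 6437.5, 6753.6, 6709.4 and 6537.9 CPM in the TBI rats. The groups overlapped by a single TBI rat, X82, which was just above the lowest sham rat, X77. The log2 fold change of let-7b was -0.16 (SE 0.054), with an adjusted p of 0.431.

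let-7e had 3542.2, 3502.9, 3513.9 and 3424.8 CPM in sham and 3395.6, 3346.8, 3129.4 and 3191.9 CPM in TBI rats at 12 m. Every TBI rat was below every sham rat, by a small margin. The log2 fold change was -0.11 (SE 0.047, edgeR adjusted p = 0.431), and an exact permutation test on log2 CPM, two-sided, had p = 0.0286, which no split of 4 against 4 libraries can go below. let-7d had a log2 fold change of -0.16 (SE 0.069) with the same adjusted p. Choroid plexus miRNAs had lower fitted levels too, with log2 fold changes of -1.74 (miR-204-5p, edgeR adjusted p = 0.431), -1.21 (miR-448-5p), -1.01 (miR-211-5p) and -0.75 (miR-764-5p). Their summed level was 2019.9 to 19382.1 CPM in sham rats (median 2355.3), highest in rat X79, and 1718.1 to 2584.9 CPM in TBI rats (median 1856.9). These ranges overlapped, and the choroid plexus fold changes without X79 are not given here. Without X79 the log2 fold change was -0.18 for let-7b, -0.13 for let-7d and -0.11 for let-7e. The tested markers on the other lists ran from -0.40 (miR-137-5p of neurons) to 0.21 (miR-219a-5p of oligodendrocytes). No marker on any list passed the adjusted test at 12 m, and the part of these cell types in the let-7 values was not tested. At 12 m the sham and TBI libraries both carry title numbers 17 to 20, whereas at the other intervals a number is shared within a group. No label gives the run, so a run difference between the groups at 12 m cannot be told apart from injury.

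let-7e at 2 w was the only other case of groups that did not overlap. Its levels were 3068.3, 3327.5, 3204.6 and 3367.3 CPM in sham and 3059.9, 2990.1, 3040.7 and 3017.0 CPM in TBI rats. The highest TBI rat was just under the lowest sham rat, and the exact permutation p was again 0.0286. The fitted log2 fold change was -0.08 (95% interval -0.21 to 0.05, edgeR adjusted p = 0.724). In all, the groups did not overlap in 2 of 63 combinations of member and interval, against 5.04% of such combinations over the 244 miRNAs. At 12 m alone it was 1 of 9 members, against 5.33% of all miRNAs.

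At 1 m the fold changes of the members spanned the widest range of the 7 intervals. let-7f had 34147.6, 41254.6, 44999.4 and 38890.8 CPM in sham and 23924.3, 29302.5, 38243.0 and 29850.3 CPM in TBI rats, so that 3 of 4 TBI rats were below all sham rats. Its log2 fold change was -0.34 (SE 0.17), with an adjusted p of 0.297 in edgeR's quasi-likelihood fit of the 8 libraries. A joint fit of all 56 libraries gave -0.39 and an adjusted p of 0.0295, in which 15.2% of all miRNAs were called at this interval. let-7f at 1 m was called in no other fit that was run.

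let-7i at 1 m had 29089.0, 31401.2, 40975.8 and 30109.5 CPM in sham and 22483.4, 62846.3, 38170.9 and 26430.4 CPM in TBI rats. TBI rat X769 had the highest let-7i level of all 56 libraries, while of the other 3 TBI rats 2 were below all sham rats and 1 was within their range. The log2 fold change was 0.26 (SE 0.28) with X769 and -0.18 without it, neither of which passed the test. Cell type markers differed by more at 1 m, and none passed the adjusted test either. The log2 fold changes of the blood list ran from -1.51 (miR-144-5p) to 0.57 (miR-142-5p), of the neuron list from -0.48 (miR-218a-5p) to 0.97 (miR-129-5p), and of the choroid plexus list from -0.52 to 0.79. They were -0.96 for miR-219a-5p and 0.22 for miR-338-5p of oligodendrocytes, and -0.68 for miR-126a-5p, the lowest of the vessel wall list. Their part in the let-7f and let-7i values was not tested. In X769, let-7i took 31.5% of the family's reads (Wilson 95% interval 31.4% to 31.6%) and let-7f 14.7%. Its TMM factor was 0.881. The median shares over all libraries were 20.9% for let-7i and 22.4% for let-7f.

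The remaining intervals also had no member that passed the adjusted test. At 24 h the log2 fold changes of the 9 members lay between -0.10 and 0.12, at 2 m between -0.10 and 0.15 and at 3 m between -0.06 and 0.11. The 2 m fit included the shallow library of X747. Without it no member passed either. The let-7i mean at 2 m was then 35786.1 ± 8726.4 CPM in TBI (n = 3) and 28105.6 ± 4293.8 CPM in sham rats. The let-7f means were 35770.1 and 31421.8 CPM. Without X747, let-7c, let-7d, let-7g and miR-98 also had higher means in TBI rats. let-7a, let-7b and let-7e had lower means. At 2 w the fold changes of the 9 members ranged from -0.31 (let-7d, edgeR adjusted p = 0.724) to 0.06. At 6 m all 9 were positive, between 0.01 and 0.14, while the median over all 224 miRNAs tested was 0.00242. The family as a whole took 15.9% to 16.9% of all counts in the sham rats and 17.0% to 17.5% in the TBI rats at 6 m, ranges that did not overlap. At the other 6 intervals the ranges overlapped, and the median was lower in TBI rats at 2 w, 1 m, 2 m and 12 m and higher at 24 h and 3 m. This sum was given no test.

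Averaged over the 7 intervals, the injury effect was likewise below the threshold in 9 of 9 members, while 4.51% of the 244 miRNAs were called. The mean log2 fold change was highest for let-7i, 0.12 (95% interval -0.02 to 0.26, edgeR adjusted p = 0.412). It was lowest for miR-98, -0.11 (95% interval -0.27 to 0.05, adjusted p = 0.559), and that of let-7a was -0.07 (adjusted p = 0.410). The median was -0.02 over the members and -0.01 over all miRNAs. The test of whether the injury effect differed between intervals called 0 of 9 members and 2.87% of all miRNAs, and the lowest adjusted p among the members was 0.508, for let-7f. Among the blood and leukocyte miRNAs, miR-142-5p rose after TBI over all intervals (log2 fold change 0.44), 1 of 5 on that list, and miR-223-5p passed the test of a difference between intervals. miR-223-5p was near the floor, with a median of 0.54 CPM and a highest value of 8.17 CPM. It was removed as too low in the fits of single intervals and of sham rats, so its call rests on low counts. No marker on the choroid plexus, vessel wall, oligodendrocyte or neuron list passed either test.

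A change of 1 member against the rest of the family was looked for by scaling each library to the summed counts of let-7a to let-7f, let-7i and miR-98. In these fits 0 of 9 members passed at any interval or in the mean of the 7, while 0.433% of all miRNA tests were called. The shares of each member in the family's reads are given as a description. At 12 m let-7g took 23.8%, 22.6%, 23.6% and 23.6% of the family's reads in sham and 24.9%, 25.9%, 25.1% and 25.99% in TBI rats. let-7d took 5.28% to 5.38% in sham and 4.64% to 4.82% in TBI rats. let-7c and miR-98 also had non-overlapping shares at 12 m, both lower after TBI, which made 4 of 9 members against 5.33% of all miRNAs scaled in the same way. Over all intervals it was 9 of 63 combinations against 4.27%. Shares sum to 100% within a library, so a higher share of let-7g lowers the others. The members are part of the sum they were divided by, unlike the other miRNAs, so 5.33% and 4.27% are not a like background. Counting error widened no share by more than 0.28 percentage points in the 55 deeper libraries, and the differences at 12 m failed the adjusted test.

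**Figure D3:**
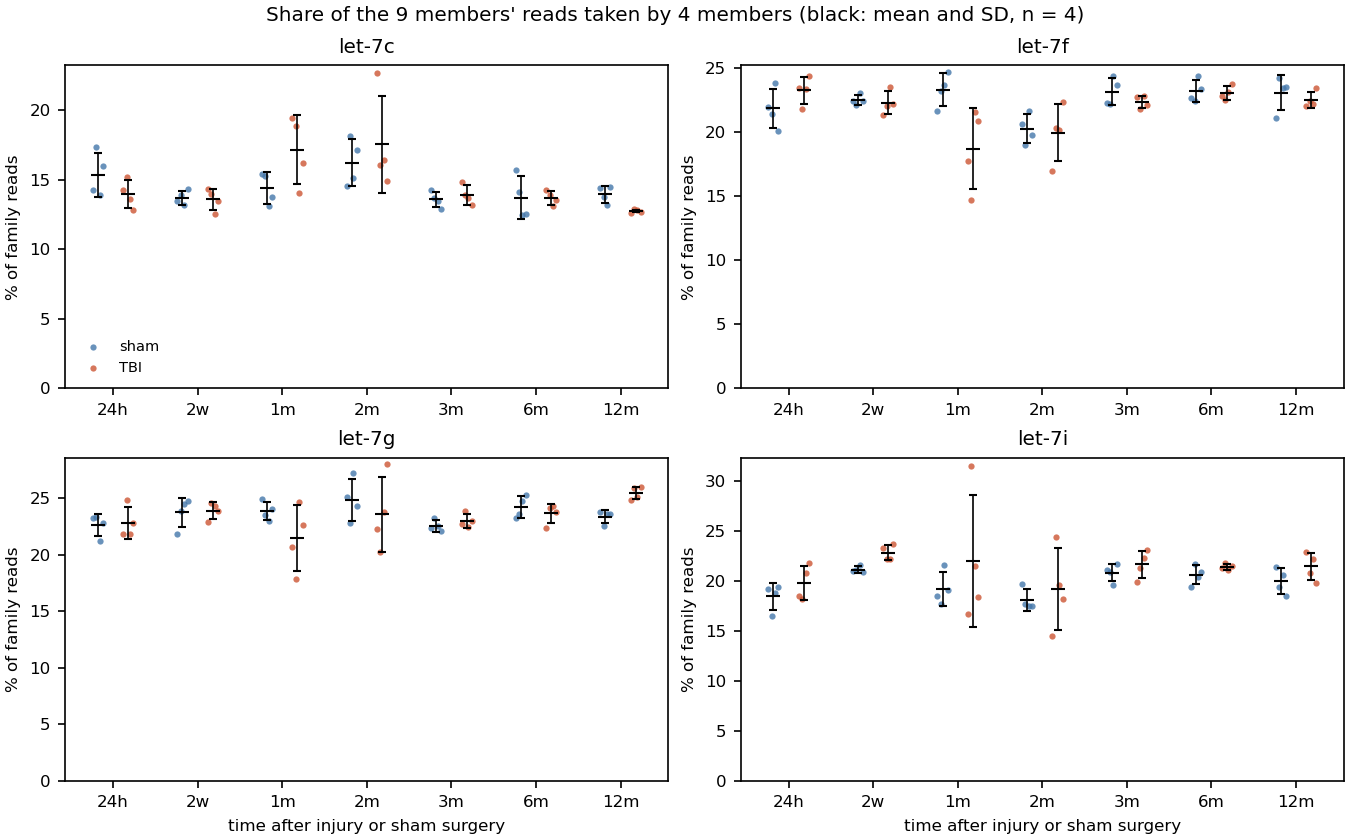
Share of the family's reads, in percent, taken by let-7c, let-7f, let-7g and let-7i in every library against time (blue, sham; red, TBI; black, mean and SD, n = 4). At 1m, TBI rat X769 had 31.5% let-7i and 14.7% let-7f, and at 12m the let-7g shares of the TBI rats, 24.9% to 25.99%, lie above those of the sham rats.

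The second comparison asked whether members differed between the 7 intervals within each treatment. miR-98 did in both. In sham rats its mean level was 1536.6 ± 535.5 CPM (SD, n = 4) at 24 h, 1095.3 ± 188.7 at 1 m, 938.8 ± 241.8 at 2 m and 1675.2 ± 238.3 at 3 m. In TBI rats it was 1483.5 ± 360.8 at 24 h, 867.5 ± 136.0 at 1 m, 899.9 ± 472.5 at 2 m (966.5 ± 555.2 without X747, n = 3) and 1662.1 ± 129.0 at 3 m. The 3 m values were the highest and the 1 m and 2 m values the lowest in both treatments. All 8 rats at 3 m had more miR-98 (1369.6 CPM or above) than the highest rat at 1 m (1329.7 CPM). At 2 m, TBI rat X749 had 1594.9 CPM, above the lowest sham rat (1369.6) and the lowest TBI rat (1476.2) at 3 m, and the other 7 rats had 1252.1 CPM or less.

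The adjusted p of miR-98 was 0.0221 in sham and 0.00596 in TBI rats in edgeR's quasi-likelihood test. In sham rats, 1 of 9 members and 27.1% of all miRNAs were called. The count of members was 4 of 9 under total count scaling and 3 of 9 scaled to the 8 listed members. The share of all miRNAs called under those scalings is not given here. In TBI rats, 2 of 9 members and 25% of all miRNAs were called, the second being let-7f (adjusted p = 0.0244). The let-7f means in TBI rats were 42756.2 CPM at 24 h, 30330.0 at 1 m, 32463.6 at 2 m (35770.1 without X747) and 40737.7 at 3 m. The difference between the highest and the lowest interval was 0.83 log2 units for miR-98 in sham and 0.98 in TBI rats. The median of this difference was 0.375 over the members and 0.562 over all miRNAs in sham rats, and 0.409 and 0.628 in TBI rats.

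In sham rats let-7g had the smallest such difference of the members, 0.11 log2 units (edgeR adjusted p = 0.973), and let-7e and let-7c followed with 0.19 and 0.26. In TBI rats the smallest was that of let-7e, 0.20, and let-7g had 0.36. let-7d differed by 0.61 in sham and 0.58 in TBI rats, with adjusted p-values of 0.0822 and 0.0791.

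Age, interval and any processing batch cannot be told apart here. Every interval carries title numbers of its own, and those at 1 m and 2 m, 21 to 28, are out of time order. Without 1 m and 2 m, an analysis chosen after seeing the data, miR-98 had an adjusted p of 0.267 in sham and 0.0442 in TBI rats. The members called were then 0 of 9 against 3.9% of all miRNAs in sham rats, and 3 of 9 (let-7a, let-7d and miR-98) against 26.5% in TBI rats. The sham call of miR-98 was also lost when library size was scaled by total count only (adjusted p = 0.0665) or when sham rat 3 at 2 m was left out (0.0550). Some cell type markers were called in the tests over all intervals too. In those tests 27.1% of all miRNAs were called in sham and 25% in TBI rats, and no list was tested against these shares. In sham rats 3 of 4 choroid plexus, 1 of 3 vessel wall, 2 of 6 neuron and 1 of 4 tested blood miRNAs were called. In TBI rats 4 of 5 blood, 1 of 4 choroid plexus, 1 of 3 vessel wall, 1 of 2 oligodendrocyte and 1 of 6 neuron miRNAs were called. The 4 blood miRNAs include miR-223-5p, which was near the floor and too low to be tested in sham rats. The summed neuron list ran from 167523.9 to 355355.2 CPM at 2 m and from 234686.0 to 282370.7 CPM at 3 m, and the vessel wall list from 1068.3 to 2077.4 and from 902.7 to 1104.7 CPM. The summed choroid plexus list ran from 1136.4 to 2165.4 CPM at 2 m and from 2595.6 to 20842.4 CPM at 3 m, the blood list from 902.7 to 1248.7 and from 1087.4 to 1469.3, and the oligodendrocyte list from 1480.6 to 2270.3 and from 1653.7 to 3010.0. Most sums follow a single abundant miRNA. By median CPM over all libraries these were miR-9a-5p (198736.0) for neurons, miR-204-5p (2136.2) for choroid plexus, miR-150-5p (961.2) for blood and miR-338-5p (1894.6) for oligodendrocytes. No marker was at 0 in all 4 libraries of any group, and the part of these lists in the miR-98 result was not tested. In whole tissue, fewer cells of a type and less RNA per cell cannot be told apart.

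The last comparison asked whether members moved together from rat to rat. For this, the deviation of log2 CPM from the group mean was correlated over 55 rats, without X747, for each of the 36 pairs. The values describe libraries that share their scaling and sequences that nearly match. The median Pearson r was 0.39 over the member pairs and 0.0027 over all 29646 pairs of the 244 miRNAs. It was 0.17 over the member pairs when library size was scaled by total count only, and 0.59 without the 1 m and 2 m libraries. An r above 0.5 was found in 12 of 36 member pairs and in 3.4% of all pairs.

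let-7b and let-7c, neighbours on chromosome 7 that differ at 1 base, were the closest pair (r = 0.92, rho = 0.90). Next came let-7a and let-7d, which share the chromosome 17 cluster (r = 0.86, rho = 0.82), and let-7f and let-7g, which share no locus (r = 0.81, rho = 0.75). let-7d and miR-98 also share no locus and had r = 0.74 (rho = 0.70). For these 4 pairs the permutation p of r was 1e-05, the smallest that 100000 resamples within groups can give, before any adjustment for the 36 pairs. That of rho was 1e-05 for the first 3 pairs and 5e-05 for let-7d and miR-98. Without the 2 rats farthest from the median, r was 0.89, 0.83, 0.77 and 0.72 in the same order.

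let-7e had the lowest values. Its r was -0.07 with let-7i, -0.03 with miR-98 and 0.02 with let-7d, with rho of 0.03, 0.24 and 0.16 and permutation p-values of 0.713, 0.941 and 0.937 for r and 0.848, 0.145 and 0.337 for rho. Without the 2 farthest rats r was 0.01, 0.18 and 0.21, and its highest r was 0.48, with let-7g. The 5 pairs that share a cluster had a median r of 0.58 and the 31 others 0.37. The 4 pairs that differ at 1 base had a median r of 0.62 and ranged from 0.21 (let-7a with let-7e, 0.49 without 1 m and 2 m) to 0.92. The median was 0.45 for pairs that differ at 2 bases, 0.34 at 3 and 0.39 at 4. The part of reads assigned to the wrong member in these values was not tested.

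**Figure D4:**
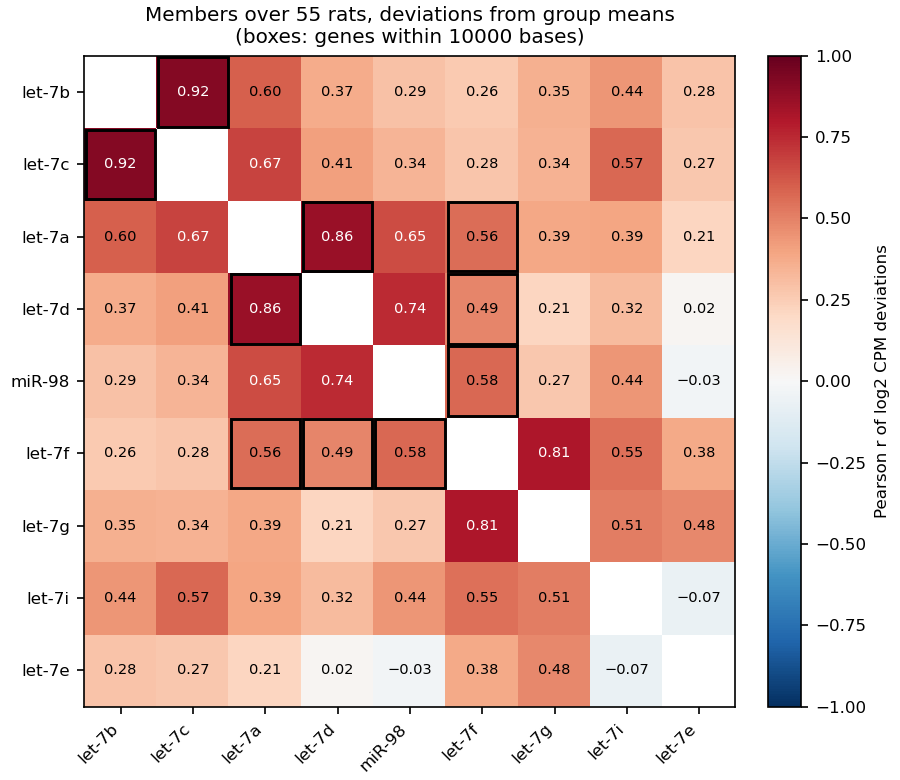
Pearson r of the deviations of log2 CPM from group means over 55 rats for each pair of members (red, positive; blue, negative; boxes mark pairs with genes within 10000 bases of each other). let-7b with let-7c (0.92), let-7a with let-7d (0.86) and let-7f with let-7g (0.81) are the strongest, and the let-7e row holds the lowest values.

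Genes of the miR-99, miR-100 and miR-125 miRNAs, which have other seeds, lie near some let-7 genes, though no miR-125b gene lies within 10000 bases of one. let-7e had r = -0.13 with miR-99b and -0.32 with miR-125a, its own neighbours. let-7c had r = 0.28 with its neighbour miR-99a, and let-7a had r = -0.01 with its neighbour miR-100. With miR-125b, r was -0.05 for let-7c and 0.33 for let-7a. None of the 5 partners passed the edgeR test of injury at an interval or over all intervals. The lowest adjusted p at a single interval was 0.195 for miR-99a at 1 m (log2 fold change 0.71).

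Outside the family, the miRNA most like each member was identified over the same 55 rats. let-7f was closest to miR-872-5p (r = 0.72) and miR-26b-5p (0.67), and miR-98 to miR-26b-5p (0.72) and miR-770-5p (0.66). let-7d was closest to miR-22-5p (0.71) and miR-26a-5p (0.68), and let-7a to miR-26a-5p (0.64) and miR-338-5p (0.63). let-7g was closest to miR-21-5p (0.69) and miR-1839-5p (0.58). let-7b and let-7c had the same closest miRNAs, miR-672-5p (0.64 and 0.62) and miR-181b-5p (0.54 and 0.56). let-7i was closest to miR-181b-5p (0.62) and miR-9a-5p (0.59), and let-7e to miR-488-5p (0.65) and miR-185-5p (0.52). Each was picked as the highest among all other miRNAs, so these values are a description. Without the 1 m and 2 m libraries, r of let-7g with miR-1839-5p was 0.24 and that of let-7i with miR-9a-5p 0.35.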

How the data were processed

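Total RNA from rat hippocampus went into NEBNext small RNA libraries, and the authors quantified miRNAs from trimmed reads with miRDeep2 and the miRBase sequences. The deposited values are raw counts without normalization, in 56 columns that each carry the title of 1 sample, with 0 columns left out. Demultiplexing used bcl2fastq 2.20.0.422 per the submitters' processing notes. Strain and age are not given in the sources used here.

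Counts were analysed with edgeR 4.0.16 (R 4.3.3). Low miRNAs were removed by filterByExpr, libraries were scaled by TMM, and quasi-likelihood p-values were adjusted over all miRNAs tested (Benjamini-Hochberg; threshold 0.05). Each interval was fitted on its own 8 libraries. The mean over intervals and the interaction were fitted on all 56, and the interval tests on the 28 libraries of each treatment. Intervals of fold changes are 95%. Log2 CPM used a prior count of 2. DESeq2 1.42.0, the likelihood ratio test, other scalings and filters, a prior count of 0.5 and leaving out libraries were the alternatives. Correlations used Python 3.11.15 with SciPy 1.17.1. The tests were checked on simulated counts with changes larger than any fold change of a member, so power at the sizes seen here was not checked. No 2 libraries of a group had counts within sampling noise (84 pairs; chi-square divided by its degrees of freedom was at least 17.5).

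let-7g met the naming rule but was absent from a working list of 8 members, so scalings and correlations are given with it unless the 8 are named. The members, marker lists and tests were chosen with earlier results of these data known. Named beside the members are let-7 cluster partners and, for each member, the 2 miRNAs most like it. CPM per rat is given for at most 2 members at intervals with an unadjusted p under 0.05, and for let-7e at 2 w, let-7f and let-7i at 1 m and the let-7g shares at 12 m, which were chosen after their values were seen. The labels do not say that rats of a group were handled apart, so p-values measure the spread between these libraries. Wilson intervals cover counting error only. Loci and sequences are from RefSeq (GRCr8). The count files name no genome build.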

Additional observations from a re-analysis of the deposited data

Results flagged for a closer look

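Within 126 sets of 4 libraries, 1 for each member and group, 6 libraries stood apart from the other 3 by Dixon's ratio, and chance alone flags about 1 in 20, or 6.3. let-7b was highest in TBI rat X769 at 1 m, with 11015.0 CPM against 7571.7 to 8053.6 in the others, the rat that also had the highest let-7i level. let-7c was low in TBI rat X460 at 24 h, with 20632.1 CPM against 27017.2 to 27921.9. let-7a was low in the TBI rat of tube23 at 2 w, with 10191.4 CPM against 10923.1 to 11033.9. let-7e was high in the sham rat of tube53 at 6 m, with 3571.4 CPM against 2938.9 to 3040.7. let-7g was low in TBI rat X83 at 12 m, with 42640.6 CPM against 45123.7 to 45496.8. miR-98 was high in sham rat X78B at 12 m, with 1654.8 CPM against 1197.0 to 1272.8.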

How the results depend on the processing

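Over 1323 member tests of TBI against sham under other settings, 1 was called, let-7f at 1 m in the joint fit of 56 libraries (1 member in place of 0). At 12 m a replicate block by title number gave 0 members and a log2 fold change of -0.16 for let-7b (edgeR adjusted p = 0.590). The 4 same-numbered pairs there had correlations of deviations from -0.17 to 0.33, and the pairs with different numbers from -0.36 to 0.30. So few pairs cannot decide whether the numbers paired the libraries. The members called between intervals in sham rats were 4 under total count scaling, 3 scaled to the 8 members, 2 scaled to the 9, 2 with at least 10 counts in every library, 2 by DESeq2, 0 without 1 m and 2 m, and 0 to 3 with single libraries left out. They were 3 without sham rat 1 or 4 at 2 w or rat 2 at 12 m, 2 without rat 1 or 3 at 24 h, rat 2 at 2 w, rat 1 or 3 at 1 m, rat 4 at 2 m or rat 4 at 6 m, and 0 without rat 3 at 2 m. In TBI rats they were 4 under total count scaling and by DESeq2, and 2 to 5 with single libraries left out, 5 without rat 4 at 24 h and 4 without rat 2 at 2 m. In the main fits 27.1% of all miRNAs were called in sham and 25% in TBI rats. The shares under the other settings are not given beside these counts, so the counts are no result about the members alone. let-7f lost its TBI call scaled to the 8 or 9 members (adjusted p = 0.115 and 0.0892) and without 1 m and 2 m (0.293). The median r of member pairs moved to 0.168 under total count scaling and to 0.586 without 1 m and 2 m. The log2 fold change of let-7i at 1 m ranged from -0.18 to 0.44 with single libraries left out. The mean injury effect of let-7f changed from -0.04 to 0.0071 without 1 m and to 0.017 without 1 m and 2 m. Of 1233 member fold changes under other settings, 120 had another sign than the value reported, and none of these was called. The causes were not tested.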
